A study of Mus musculus with 52 samples.

Results

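The imprinted cluster of Ube3a, Snrpn, Ndn, Magel2, Mkrn3 and Peg12 was described with peaks of SmcHD1, CTCF and Rad21. Its members were taken by gene name and not by any measured value: they are 6 of the 21938 protein-coding genes of GENCODE release M21, all on mouse chromosome 7 (mm10). The choice was made with earlier results of these data known, and the study itself had reported SmcHD1 enrichment at this cluster. The region of it that the study showed enlarged was that of Magel2, Mkrn3 and Peg12. Every peak whose midpoint lay between 200 kb before Ube3a and 200 kb after Peg12 was included, which gave 263 of the 418635 peaks in 8 lists. Genomic imprinting is the expression of a gene from the copy inherited from a given parent. In this cluster Snrpn, which encodes a protein of the spliceosome, Ndn and Magel2, which encode proteins of the MAGE family, Mkrn3, which encodes a ring finger protein, and Peg12 are known to be expressed from the paternal copy. Ube3a, which encodes a ubiquitin ligase, is known to be expressed from the maternal copy in neurons and from both copies in most other cells. The promoter region of Snrpn is the imprinting centre of the cluster, and a long transcript from that side, Snhg14, carries arrays of genes for small nucleolar RNAs (snoRNAs) and runs antisense into Ube3a. CTCF is a DNA-binding insulator protein, Rad21 is a subunit of cohesin, the ring complex that is known to halt at CTCF sites, and SmcHD1 is a chromosomal protein related to cohesin and condensin that is best known from the inactive X chromosome.

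The cells were clonal female mouse embryonic fibroblasts from F2 animals of a cross between M.m.domesticus FVB and M.m.Castaneus. Wild-type (wt) cells were clone Wt2A1, cells of the SmcHD1 MommeD1 mutant (mut) were clone Mut5A6, and the CRISPR KO (somKO) lists joined clones A3-3 and D4, which according to the methods of the study came from another wild-type clone than Wt2A1. Cells for the SmcHD1 and Rad21 libraries were crosslinked with EGS plus formaldehyde, those for the CTCF libraries only with formaldehyde. Each list was called by the authors on merged libraries, joining 3 per genotype for SmcHD1, 3, 3 and 4 for CTCF and 2, 2 and 4 for Rad21 (order wt, mut, somKO), so that no value here has a replicate error and none was tested. Clone and genotype cannot be told apart in these lists, reads of the maternal and paternal copies were called together, and the depth is unknown. Because each list was called on merged libraries, the intervals below cover counting error alone. The lists held 6993 SmcHD1 peaks in wt and 244 in mut, 60204, 57798 and 69736 CTCF peaks, and 67655, 66031 and 89974 Rad21 peaks in wt, mut and somKO. The deposited score was used to rank a peak within its own list, as a score percentile (the percent of peaks in that list with a lower score, with ties counted by their middle rank).

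The interval spanned 3.64 Mb, chr7:59028750-62664510, and the members sat at its ends. The Snrpn side, chr7:59028750-60340219 (1.31 Mb), held Ube3a (chr7:59228750-59311536, plus strand) and Snrpn (chr7:59982495-60140219, minus strand). The Magel2 side, chr7:62146569-62664510 (0.518 Mb), held Ndn (chr7:62346569-62350262, plus), Magel2 (chr7:62377010-62381640, plus), Mkrn3 (chr7:62417593-62420139, minus) and Peg12 (chr7:62461871-62464510, minus). Between them lay 1.81 Mb with no member.

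The Snrpn side held most of the SmcHD1 peaks of the interval in wt, and few of its CTCF or Rad21 peaks in any genotype. In wt cells SmcHD1 had 18 peaks on the Snrpn side, 5 between the sides and 2 on the Magel2 side, whereas CTCF had 4, 18 and 17 and Rad21 had 4, 19 and 10. The CTCF density was 3.05 peaks per Mb on the Snrpn side and 32.8 on the Magel2 side, a ratio of 10.8 (95% interval 3.51 to 44.0), where the 19 autosomes had 24.03 ± 6.74 (SD). The Magel2 side thus lay above that range in wt and the Snrpn side far below it. That SD is between whole autosomes and does not measure local windows. Of 146 windows of 1 Mb on chromosome 7, 62 had more CTCF wt peaks than that with the Magel2 side (21). By windows the Magel2 side did not stand out. The window with Ube3a had 3, and 129 had more. The CTCF density of the Magel2 side was within the autosome SD in mut and somKO. Its Rad21 density was below the SD in wt (19.31 beside 27.16 ± 6.71) and within it in mut and somKO. The CTCF ratio was 5.91 (2.13 to 18.8) in mut and 5.79 (2.25 to 16.6) in somKO. The Rad21 ratios, in the order wt, mut and somKO, were 6.33 (1.83 to 27.7), 6.58 (2.20 to 23.6) and 9.50 (3.02 to 39.3). In each of the 6 CTCF and Rad21 lists the Magel2 side was therefore the denser, by more than counting error. Neighbouring peaks were each counted, also where they belonged to 1 site. Of the 31-base words of the Snrpn side 48.5% occurred more than once in the genome, against 25.4% on the Magel2 side. The Snrpn side also holds 50000 bases that are not assembled. The part of read placement in these ratios was not tested. SmcHD1 had 13.7 peaks per Mb on the Snrpn side and 3.86 on the Magel2 side, a ratio of 0.281 whose interval reached past 1 (0.0317 to 1.18), beside 1.995 ± 2.32 over the autosomes. In mut cells 1 SmcHD1 peak was left in the interval, on the Snrpn side. The whole SmcHD1 list went from 6993 peaks in wt to 244 in mut, so this drop was common to the list.

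**Figure D1:**
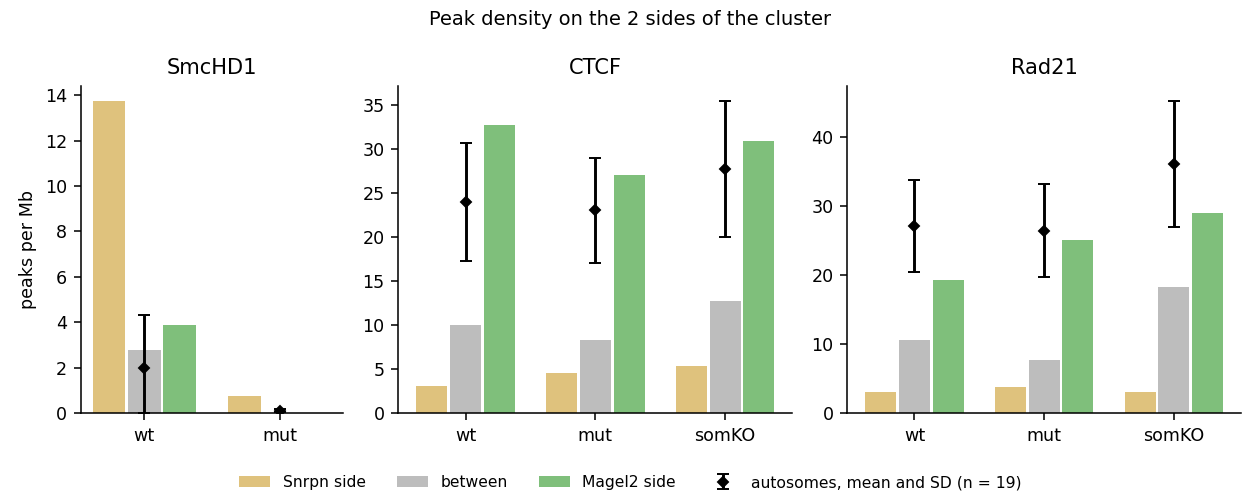
Peaks per Mb on the Snrpn side, between the sides and on the Magel2 side in each list (bars, 1 list each, no replicate error), with the mean and SD of the 19 autosomes in the same list (diamonds; the lower end of the bar is drawn to 0 for SmcHD1 in wt). The Snrpn side stands at 13.7 for SmcHD1 in wt and at 3.05 to 5.34 for CTCF and Rad21, below the autosomes in all 6 of those lists.

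Of the 18 SmcHD1 wt peaks on the Snrpn side, 17 lay inside Snhg14 (chr7:59307924-59975759), the host transcript of the snoRNA genes, and the other lay at the Ube3a promoter. Snhg14 carries 2 arrays, of 134 snoRNA genes 78 or 79 bases long (chr7:59344073-59619095) and of 70 snoRNA genes 92 to 94 bases long (chr7:59673461-59904848). In the annotation 17 of the 70 have names that begin with Snord116, and none of the 134 has such a name. The array of 70 genes, 231 kb long, held 15 SmcHD1 peaks and the array of 134 genes, 275 kb long, held 2. The window of 1 Mb that holds both arrays had 18 SmcHD1 peaks, and 1 of the 146 windows of chromosome 7 had more, with a median of 0. The highest score of the side was that of chr7:59711715-59712063 (128, percentile 89.4), followed by chr7:59769871-59770100 (percentile 85.6) and chr7:59726244-59726513 (92, percentile 82.9). The other 12 peaks of that array had percentiles from 1.49 to 71.0, so that the array held weak as well as strong peaks. The mut peak, chr7:59797681-59797933, had a score of 24 (percentile 9.02 in its list of 244) and lay within the wt peak chr7:59797591-59797952 (score 37, percentile 39.9) in the same place.

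The snoRNA genes under these peaks are copies of each other, and their sequences are shown for that reason, read from GRCm38.p6 on the gene's own strand. SmcHD1 wt peaks overlapped 5 genes of the array of 70, of which 4, among them Gm24760 and Snord116l15, had the same 94 bases, a sequence shared by 30 snoRNA genes of chromosome 7. The sequence of Gm22511, the gene overlapped in the other array, was shared by 33. Capitals mark the letters TGATGA and CTGA, which belong to the C and D boxes that box C/D snoRNAs have near their ends.
Gm24760, chr7:59751489-59751582: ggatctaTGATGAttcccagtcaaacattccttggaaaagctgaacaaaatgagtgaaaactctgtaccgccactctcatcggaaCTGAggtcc
Gm22511, chr7:59471904-59471982: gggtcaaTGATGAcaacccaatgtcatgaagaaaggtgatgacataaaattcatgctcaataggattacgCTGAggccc

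Because reads from such copies can be hard to place, each peak was compared with the genome in words of 31 bases. In the array of 70 genes 89.5% of the words occurred more than once in the genome, and in the other array 85.5%, against 28.3% between the sides and 25.4% on the Magel2 side. The array of 70 genes also holds 50000 bases that are not assembled. Of its 15 SmcHD1 wt peaks, all 15 had over 50% of their words repeated, from 79.5% to 100% with a median of 100%, beside 50.0% of the 6993 wt peaks of the genome that had over 50%. Keeping wt peaks with at most 50% repeated words, a choice made after these values were seen, left 1 peak on the Snrpn side, 2 between the sides and 2 on the Magel2 side, that is 0.763, 1.11 and 3.86 peaks per Mb beside 0.749 for chromosome 7. The excess of SmcHD1 on the Snrpn side was thus carried by peaks over repeated sequence. What share of it was due to the placing of reads was not tested. The mut list holds 1 peak over the same repeats.

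**Figure D2:**
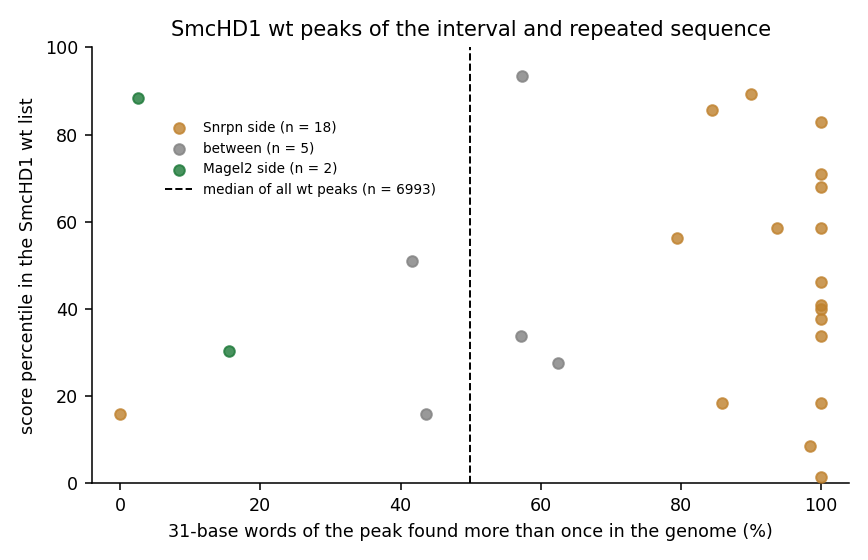
Score percentile of each SmcHD1 wt peak of the interval against the percent of its 31-base words found more than once in the genome; each point is a peak and the dashed line is the median of all 6993 wt peaks (49.9%). On the Snrpn side 17 of 18 points lie at 79.5% or above and the other, at the Ube3a promoter, at 0%, and both points of the Magel2 side lie at 15.6% or below.

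No CTCF or Rad21 peak was listed in the arrays that held the SmcHD1 peaks, in any genotype. In wt cells no CTCF peak was listed for 1008 kb from the Ube3a promoter to chr7:60237335, past Snhg14 and Snrpn, and no Rad21 peak for 1009 kb. Of the 3565 gaps between neighbouring CTCF peaks of chromosome 7, 4 were at least that long, and over the autosomes 0.110% were. In mut the longest gap was 771 kb for CTCF and 774 kb for Rad21, and in somKO 762 kb for CTCF and 1007 kb for Rad21. Some sites of the Snrpn side lay outside the members. Before Ube3a, chr7:59080025-59080827 had CTCF percentiles of 66.0, 65.0 and 66.9 (wt, mut, somKO), and the Rad21 peaks over it had 85.4, 88.4 and 92.1. A weaker site, chr7:59113447-59113741, had CTCF in wt (30.1) and somKO (30) and not in mut, and Rad21 in the same 2 genotypes (49.0 and 60.5). Upstream of Snrpn, chr7:60237336-60239488 had CTCF percentiles of 80.3, 81.3 and 77.5 and Rad21 percentiles of 72.6, 80.9 and 85.0, which made it the highest CTCF site of the side in each genotype. Words repeated in the genome made up 51.7% of the wt CTCF gap and 13.7% of Snrpn by its GENCODE outline. In wt cells that outline held no peak of any of the 3 proteins. By the longer RefSeq outline, which reaches past the gap, Snrpn held 5 CTCF, 2 Rad21 and 1 SmcHD1 peaks in wt. Snhg14, which lies within the gap, also holds 50000 bases that are not assembled. Whether read placement had a part in these gaps was not tested.

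At the promoters of the members, taken as 1 kb on either side of a transcript start, CTCF and Rad21 named the same 3 genes in wt cells: Ube3a, Magel2 and Peg12. A CTCF peak was found at 3 of 6 members in each genotype, beside 35.2%, 40.3% and 39.6% of all protein-coding genes in wt, mut and somKO. Rad21 peaks were found at 3 of 6 members in wt, 3 in somKO and 5 in mut, beside 53.0%, 58.6% and 57.2% in that order. Shares of 3 in 6 do not stand apart from these backgrounds. SmcHD1 had a peak at 1 of 6 in wt and at none in mut, beside 5.62% and 0.378%.

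At Ube3a the CTCF score percentile was 57.3, 66.7 and 59.5 (wt, mut, somKO), and the Rad21 percentile 49.9, 59.6 and 62.2. Both proteins therefore sat near the middle of their lists there in all genotypes. The SmcHD1 wt peak at the same promoter, chr7:59229060-59229382, had a score of 24 (percentile 15.9) and lay under the CTCF peak chr7:59228742-59229399. It had no counterpart in mut, whose whole SmcHD1 list held 244 peaks beside 6993 in wt. At Magel2 the CTCF percentile was 71.3, 72.1 and 80.1 and the Rad21 percentile 71.0, 73.3 and 80.9, so that both ranked higher than at Ube3a in every genotype. At Peg12 the CTCF percentile was 82.2, 89.7 and 86.8 and the Rad21 percentile 60, 64.8 and 74.3. CTCF ranked highest at Peg12 among the 3 promoters, whereas Rad21 ranked highest at Magel2. In wt cells Magel2 also had a second, weak CTCF peak over its start (chr7:62376847-62377278, percentile 7.05).

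The promoter sequences of the members with these peaks are shown beside that of Snrpn, which had none in wt, with CpG dinucleotides in capitals, because CpGs are the sites of the DNA methylation that imprinting is known to use. They were taken from RefSeq (GRCm38.p6), 250 bases before to 50 after a start, on the gene's own strand; all 6 members matched, and Snrpn has 4 entries, of which the start in the imprinting centre is shown.
Ube3a, chr7:59228500-59228799, plus: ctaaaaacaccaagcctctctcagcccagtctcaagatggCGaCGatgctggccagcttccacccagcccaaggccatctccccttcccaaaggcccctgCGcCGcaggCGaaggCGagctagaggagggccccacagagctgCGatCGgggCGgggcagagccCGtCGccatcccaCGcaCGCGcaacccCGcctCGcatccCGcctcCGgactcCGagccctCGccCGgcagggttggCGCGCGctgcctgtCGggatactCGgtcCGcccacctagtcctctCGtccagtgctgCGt
Magel2, chr7:62376729-62377028, plus: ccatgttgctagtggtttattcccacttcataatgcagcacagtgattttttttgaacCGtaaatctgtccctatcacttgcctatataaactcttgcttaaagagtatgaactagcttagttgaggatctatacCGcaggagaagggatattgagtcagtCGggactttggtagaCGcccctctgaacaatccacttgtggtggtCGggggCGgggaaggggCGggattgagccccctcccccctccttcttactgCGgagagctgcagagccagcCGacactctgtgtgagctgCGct
Peg12, chr7:62464461-62464760, minus: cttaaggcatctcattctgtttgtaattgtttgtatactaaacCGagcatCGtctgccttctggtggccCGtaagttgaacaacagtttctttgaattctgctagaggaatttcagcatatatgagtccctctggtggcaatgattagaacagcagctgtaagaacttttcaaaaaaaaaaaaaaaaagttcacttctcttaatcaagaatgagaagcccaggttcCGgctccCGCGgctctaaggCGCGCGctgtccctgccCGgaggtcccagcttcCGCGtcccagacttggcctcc
Snrpn, chr7:60005150-60005449, minus: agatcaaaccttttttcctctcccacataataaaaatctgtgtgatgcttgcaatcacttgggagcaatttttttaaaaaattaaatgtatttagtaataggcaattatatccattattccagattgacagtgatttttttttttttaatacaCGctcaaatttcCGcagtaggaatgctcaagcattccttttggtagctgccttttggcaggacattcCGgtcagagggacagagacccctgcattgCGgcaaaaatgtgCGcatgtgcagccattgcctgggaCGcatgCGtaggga
Ube3a had 29 CpGs, and 12.9% of the 32851 RefSeq promoters had as many or more. Magel2 had 10 (43.5%), Peg12 had 12 (39.6%) and Snrpn had 7 (52.1%), beside a median of 7. The other members had 11 (Ndn) and 15 (Mkrn3). Ube3a was thus the most CpG-rich promoter of the 6, and CTCF was found within 1 kb of a start both there and at 2 promoters of ordinary CpG content. The printed Magel2 window overlapped the weak CTCF peak of percentile 7.05 in wt, no CTCF peak in mut and the promoter peak in somKO. The higher-ranked wt peak and the mut peak lay before that window.

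Snrpn, Ndn and Mkrn3 had no CTCF peak at a promoter in any genotype and no Rad21 peak there in wt or somKO. In mut a Rad21 peak lay at the Snrpn promoter (chr7:60004465-60005053, score 29, percentile 8.93), 0.058 kb from a start of Snrpn and within 1 kb of Snurf, the gene that shares a transcript with Snrpn. Another lay at the Mkrn3 promoter (chr7:62419809-62420151, score 75, percentile 35.2). A further Rad21 mut peak, in the exon of Ndn (chr7:62348406-62348696), had the lowest score a list can hold, 13 (percentile 0.178). It is 1.84 kb from the GENCODE start of Ndn but close to the RefSeq start, chr7:62348277, so that with RefSeq starts, a choice made after these values were seen, all 6 members had a Rad21 promoter peak in mut against 3 in wt and 3 in somKO. By GENCODE starts, with which Snrpn and Mkrn3 but not Ndn had a Rad21 promoter peak in mut alone, 2.70% of all protein-coding genes had one. No such share was computed with RefSeq starts. The Rad21 mut peaks at Snrpn, Mkrn3 and Ndn were low in their list, and a score of at least 50 kept the peak at Mkrn3 and dropped the others.

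In and upstream of Snrpn some CTCF sites were listed in mut or somKO and not in wt. On the Snrpn side 3 of 6 CTCF mut peaks had no wt counterpart (50%, 11.8 to 88.2), beside 16.8% of all CTCF mut peaks. In somKO it was 3 of 7 (42.9%, 9.90 to 81.6), beside 22.6%. Both intervals included their background, so these sites do not set the side apart from the whole lists. A CTCF peak in an intron of Snrpn, chr7:60007582-60008053, had a percentile of 43.3 in mut and 25.7 in somKO and no wt counterpart. It lay 2.47 kb in mut and 2.56 kb in somKO from the inner of the 2 GENCODE starts of Snrpn. A weaker peak, chr7:60000820-60001024, was in mut alone (percentile 20.1). Upstream of the gene, chr7:60224044-60224886 had percentiles of 46.0 in mut and 51.4 in somKO. None of these 3 sites overlapped a Rad21 peak in any genotype. The first 2 lay in sequence with 1.81% and 0% repeated words, and the last in sequence with 40.5%. For Ube3a itself, an intronic CTCF peak was listed in somKO alone (chr7:59245554-59245877, percentile 41.2). All 4 sites had percentiles of 51.4 or below, and with 1 list per genotype their absence from wt was not tested.

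Upstream of Snrpn the CTCF sites came in copies. CTCF sites were made by joining overlapping peaks of the 3 genotypes, which gave 50 sites in the interval, and sites were compared in words of 21 bases. Of the 50, 15 shared over 10% of their words with another site, in 5 sets, and the 3 largest sets lay between chr7:60224044 and chr7:60728892. The set of 5 sites, chr7:60237336-60239488, chr7:60385354-60387626, chr7:60487027-60488920, chr7:60615828-60617766 and chr7:60727055-60728892, lay at 0, 148, 250, 379 and 490 kb from the first. All 5 had CTCF and Rad21 in all 3 genotypes. Their CTCF percentiles were 80.3, 80.8, 94.6, 90.2 and 84.1 in wt, 81.3, 77.4, 90.0, 78.6 and 72.8 in mut and 77.5, 81.6, 93.4, 90.5 and 81.0 in somKO. All of these strong sites were present in every CTCF and Rad21 list, and the first of them closed the long wt gap over Snrpn. They had from 36.9% to 55.5% repeated words, and the part of read placement in their presence and percentiles was not tested.

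A stretch of 60 bases that is nearly the same in the 5 copies is shown, read from GRCm38.p6 on the plus strand, because it shows how alike the copies are and holds an exact match to the CTCF motif in the last of them. Capitals mark the 55 bases that are the same in all 5. The letters of the motif searched, on both strands, were CCNNNAGNNGGC, a shortened form of the CTCF consensus with 7 fixed letters, and bases 25 to 36 are compared with it.
chr7:60238957-60239016: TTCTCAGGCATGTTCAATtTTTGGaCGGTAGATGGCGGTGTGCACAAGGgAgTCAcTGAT
chr7:60387130-60387189: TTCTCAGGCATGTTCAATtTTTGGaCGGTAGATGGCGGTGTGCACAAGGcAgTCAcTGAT
chr7:60488213-60488272: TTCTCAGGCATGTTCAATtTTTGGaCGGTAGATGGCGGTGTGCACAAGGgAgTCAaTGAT
chr7:60617435-60617494: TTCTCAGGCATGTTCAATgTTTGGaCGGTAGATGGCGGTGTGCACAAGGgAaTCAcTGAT
chr7:60728490-60728549: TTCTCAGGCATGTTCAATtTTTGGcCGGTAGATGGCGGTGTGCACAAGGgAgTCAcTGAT
The copy farthest from Snrpn matched all 7 letters and the other 4 matched 6 of 7 at this place. Of those 4, the sites beginning at chr7:60237336 and chr7:60615828 held an exact match elsewhere, on the minus strand. Among all 300-base windows of chromosome 7, 3.54% held an exact match, among windows centred on CTCF wt peaks of the chromosome 39.7%, and on Rad21 wt peaks 25.9%. A match is a description of the letters and was not tested as a binding site.

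The weaker sets lay beside the strong sites at like distances. The set of 3 that begins with chr7:60224044-60224886 had further copies at chr7:60373735-60374374 and chr7:60476090-60476490. Its first and last copies were listed in mut and somKO and not in wt, and the middle copy had percentiles of 44.5 in wt, 61.0 in mut and 66.7 in somKO. No copy of it overlapped Rad21. The other set of 3, chr7:60379368-60380185, chr7:60481246-60482380 and chr7:60608541-60609200, had percentiles of 13.2, 44.8 and 27.2 in wt, 33.1, 45.8 and 27.3 in mut and 48.5, 66.8 and 60.9 in somKO. The latter 2 overlapped Rad21 in somKO alone. In both sets each copy ranked higher in somKO than in wt or was absent from wt. Over all CTCF wt peaks with a counterpart in somKO the percentile moved by a median of 4.28, and in mut by -0.704. The somKO list is longer and joins more libraries, and the part of either in this shift was not tested. The copies of both sets had from 39.6% to 63.1% repeated words, and the part of read placement in these values was not tested.

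**Figure D3:**
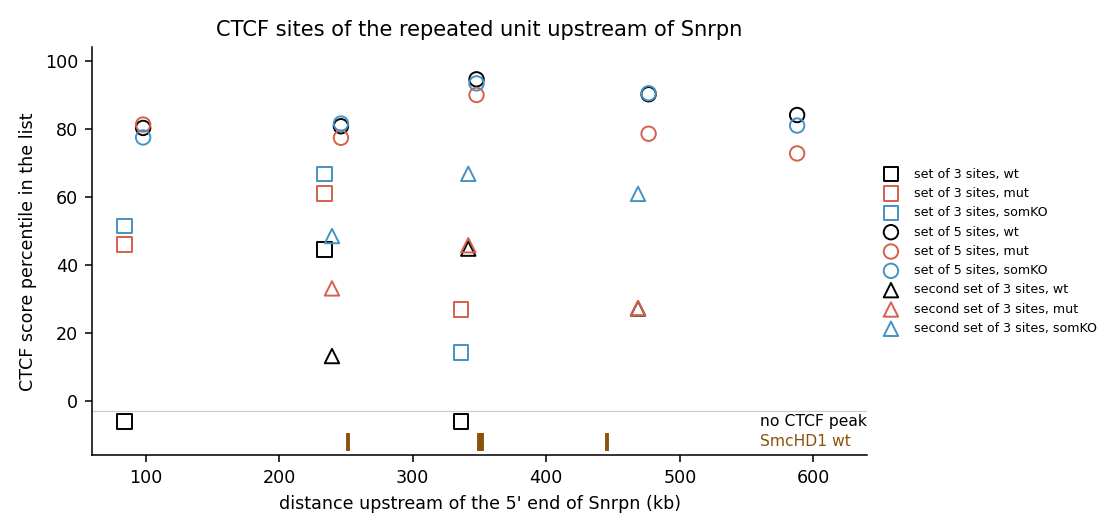
CTCF score percentile at the 3 largest sets of copied sites, by distance upstream of the GENCODE 5' end of Snrpn in kb; each symbol is a site in a genotype (black wt, red mut, blue somKO), symbols under the line mark sites with no peak, and brown ticks are SmcHD1 wt peaks. Circles, the set of 5, lie at 72.8 or above in every genotype, and squares and triangles lie at 66.8 or below.

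SmcHD1 peaks between the sides lay among these copies. All 5 were within chr7:60390903-60585617, and none lay in the remaining stretch up to Ndn. The highest, chr7:60491968-60492790, had a score of 184 (percentile 93.5), the strongest SmcHD1 peak of the interval, and began 3.05 kb after the strong CTCF site chr7:60487027-60488920. The peak chr7:60390903-60392002 (percentile 51.1) began 3.28 kb after the neighbouring copy of that site, and these 2 SmcHD1 peaks shared 38.7% of the words of the shorter. The same kind of place was thus marked beside 2 of the 5 copies. These 2 peaks had 57.3% and 41.7% repeated words, and the part of read placement in their likeness was not tested. The other 3 SmcHD1 peaks had percentiles of 27.7, 15.9 and 33.9. In the RefSeq annotation Snrpn extends to chr7:60450177 through upstream exons, and by that outline the gene held 1 SmcHD1 wt peak and 5, 7 and 7 CTCF peaks in wt, mut and somKO, in place of 0 SmcHD1 peaks and 0, 2 and 1 CTCF peaks by GENCODE.

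On the Magel2 side 13 of 18 CTCF sites were listed in all 3 genotypes. Of its 17 CTCF wt peaks, 3 had no counterpart in mut (17.6%, 3.799 to 43.4) and 2 had none in somKO (11.8%, 1.46 to 36.4), beside 19.7% and 7.63% of all CTCF wt peaks, and both intervals included that background. The strongest, chr7:62399898-62400889, lay in the non-coding gene Gm32061 between Magel2 and Mkrn3, with percentiles of 94.7 in wt, 90.9 in mut and 93.1 in somKO for CTCF. The Rad21 peaks over it had 92.5, 95 and 95.6. It was the top CTCF peak of the interval in wt, and none of its 6 percentiles was below 90.9. Downstream of Magel2, chr7:62382311-62383336 had CTCF percentiles of 84.5, 80.3 and 82.4, and the Rad21 peak over it, which reached the exon of Magel2, had 94.4, 94.3 and 96.9. At the far end, beyond Peg12, chr7:62541453-62542786 had CTCF percentiles of 83.4, 90.2 and 91.5 and Rad21 percentiles of 52.7, 73.8 and 68.6. On the Snrpn-facing flank, before Ndn, Rad21 had percentiles of 90.9, 87.1 and 94.6 at chr7:62226839-62229368 and of 75.2, 88.6 and 81.8 at chr7:62179330-62179950, and CTCF lay under both in all 3 genotypes. The far end was the place on this side with all 3 proteins: both SmcHD1 wt peaks of the Magel2 side lay there, chr7:62540874-62541204 (score 32, percentile 30.3) and chr7:62541620-62542993 (score 119, percentile 88.3). With 15.6% and 2.60% repeated words they lay in nearly single-copy sequence. The nearer lay 76.4 kb from the start of Peg12. No SmcHD1 wt peak was listed at the promoter or body of Magel2, Mkrn3 or Peg12, the genes of the region that the study showed enlarged. Neither of the 2 peaks at the far end had a counterpart in mut, whose whole SmcHD1 list held 244 peaks beside 6993 in wt.

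The motif was found in 9 of the 18 CTCF sites on this side, and since joined sites differ in length this count has no matched background. Stretches of 60 bases around each match are shown for all 9, each on the strand of the match, with the match in capitals. The site at the far end held 2 matches.
Before Ndn, chr7:62179578-62179637, plus: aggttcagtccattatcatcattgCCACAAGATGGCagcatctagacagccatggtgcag
Magel2 promoter site, chr7:62375820-62375879, minus: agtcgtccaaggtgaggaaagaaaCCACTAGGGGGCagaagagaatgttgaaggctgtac
Downstream of Magel2, chr7:62382579-62382638, minus: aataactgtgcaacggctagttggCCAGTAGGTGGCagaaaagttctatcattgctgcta
Strongest site, chr7:62400265-62400324, minus: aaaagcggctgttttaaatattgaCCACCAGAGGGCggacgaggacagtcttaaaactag
Beyond Mkrn3, chr7:62433433-62433492, minus: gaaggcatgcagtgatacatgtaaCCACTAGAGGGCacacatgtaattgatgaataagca
Beyond Mkrn3, chr7:62436531-62436590, plus: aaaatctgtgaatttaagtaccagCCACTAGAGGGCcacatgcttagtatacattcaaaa
Peg12 promoter site, chr7:62464670-62464729, plus: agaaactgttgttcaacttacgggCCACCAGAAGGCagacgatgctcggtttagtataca
Beyond Peg12, chr7:62477484-62477543, plus: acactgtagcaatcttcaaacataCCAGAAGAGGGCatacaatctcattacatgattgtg
Far end, chr7:62542331-62542390, plus: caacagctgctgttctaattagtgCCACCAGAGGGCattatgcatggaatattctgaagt
Far end, chr7:62542425-62542484, plus: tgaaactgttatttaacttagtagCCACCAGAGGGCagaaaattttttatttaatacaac
The match read on the plus strand in 5 of the 9 sites and on the minus strand in 4. The match at Peg12 lay inside the 300-base promoter printed above, and 8.61% of all RefSeq promoters held a match; the printed windows of Ube3a, Magel2 and Snrpn held none.

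Ndn and Mkrn3 sat between the occupied places. No CTCF peak was listed for 141 kb around the start of Ndn in wt (112 kb on the Snrpn side of it and 28.9 kb towards Magel2), 147 kb in mut and 141 kb in somKO, and 6.05%, 5.87% and 4.86% of autosomal gaps were as long. Mkrn3 lay in a CTCF gap of 26.9 kb in wt, a common length (33.7% of autosomal gaps). On the Magel2 side 11 of 17 CTCF wt peaks overlapped Rad21 (64.7%, 38.3 to 85.8), close to the 67.6% of all CTCF wt peaks, and the 3 highest-ranked of the sites that did not in wt lay beyond Mkrn3. The site chr7:62433174-62433778 had CTCF percentiles of 83.7, 76.4 and 78.8 and no Rad21 peak in any genotype, and chr7:62427589-62429101 had 89.8, 86.3 and 90.8 with Rad21 listed in mut (percentile 24.6) and somKO (59.4) but not in wt. The site chr7:62436039-62437135 had 72.9, 74.4 and 73.7, with Rad21 in somKO alone (36.4). In wt cells no Rad21 peak was listed for 63.9 kb around the start of Mkrn3, up to Peg12, and 13.5% of autosomal Rad21 gaps were as long.

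**Figure D4:**
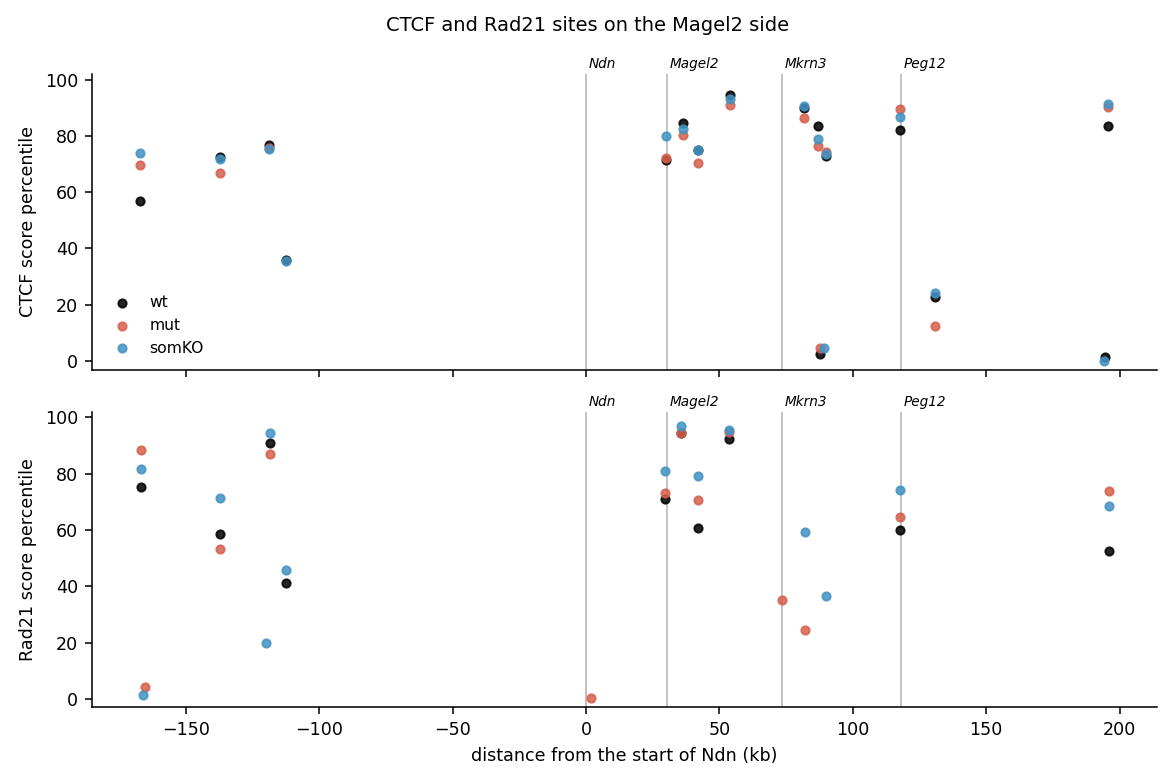
Score percentile of the CTCF sites (top) and Rad21 sites (bottom) of the Magel2 side by distance from the start of Ndn in kb; each point is a site in a genotype (black wt, red mut, blue somKO) and grey lines mark the starts of the 4 members. CTCF points beyond Mkrn3 lie at 72.9 or above for 3 sites that have no black Rad21 point below them.

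Overlap of the proteins was read against the whole lists. In the interval 25 of 33 Rad21 wt peaks overlapped a CTCF peak (75.8%, 95% interval 57.7 to 88.9), beside 58.9% of all Rad21 wt peaks. In mut it was 24 of 32 (75%, 56.6 to 88.5) beside 58.4%, and in somKO 31 of 52 (59.6%, 45.1 to 73.0) beside 54.9%. All 3 intervals included their background. With a score of at least 50 the shares in the interval were 80% (61.4 to 92.3), 91.7% (73.0 to 99.0) and 73.2% (57.1 to 85.8), and with lists of equal length the somKO share was 78.4% (61.8 to 90.2), for which no background under the same setting was computed. On the Magel2 side 10 of 10, 10 of 13 and 13 of 15 Rad21 peaks overlapped CTCF, and between the sides 11 of 19, 11 of 14 and 14 of 33. In the other direction 27 of 39, 22 of 35 and 33 of 46 CTCF peaks overlapped Rad21, beside 67.6%, 68.6% and 74.4% of all. SmcHD1 wt peaks overlapped CTCF at 4 of 25 and Rad21 at 3 of 25, beside 20.4% and 25.9% of all 6993. The share of peaks holding the motif was lower in the interval than on chromosome 7 for CTCF in wt, at 8 of 39 (20.5%).

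Between genotypes the interval changed about as the whole lists did. Of 39 CTCF wt peaks, 9 had no counterpart in mut (23.1%, 11.1 to 39.3), beside 19.7% of all CTCF wt peaks, and 5 had none in somKO (12.8%, 4.30 to 27.4), beside 7.63%. Of the CTCF peaks of mut, 5 of 35 had no counterpart in wt (14.3%, 4.81 to 30.3), beside 16.8%, and of somKO 10 of 46 (21.7%, 10.9 to 36.4), beside 22.6%. Of 33 Rad21 wt peaks, 9 had no counterpart in mut (27.3%, 13.3 to 45.5), beside 28.5%, and 1 had none in somKO (3.03%, 0.0767 to 15.8), beside 7.22%. Of the Rad21 peaks of mut, 6 of 32 were absent from wt (18.8%, 7.21 to 36.4), beside 27.2%, and of somKO 20 of 52 (38.5%, 25.3 to 53.0), beside 37.8%. Each of these 8 intervals included its background. The Rad21 gains of somKO lay mostly between the sides, where 16 of its 19 sites not listed in the other genotypes were found, and the somKO list was the longest and came from the most libraries.

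The rank of shared peaks moved little for CTCF and upward for Rad21 in somKO. At the 30 CTCF wt peaks of the interval with a mut counterpart the percentile changed by a median of -2.25, beside -0.704 over all peaks, and at 34 with a somKO counterpart by 0.897, beside 4.28. For Rad21 the median change was -1.19 in mut at 24 peaks, beside 0.896, and 8.72 in somKO at 32 peaks, beside 8.68. In mut 10 of the 12 shared Rad21 peaks between the sides ranked lower, with a median change of -3.98. On the Snrpn side 3 of 3 and on the Magel2 side 6 of 9 ranked higher in mut, beside 54.1% over all peaks. This difference within the interval was not tested. On the Magel2 side all 10 Rad21 wt peaks ranked higher in somKO, by a median of 8.27, as did 86.1% of all Rad21 wt peaks with a counterpart. That direction was therefore common to the list.

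Of the other genes of the domain and its neighbours that were looked up, 15 of 18 were found by symbol, most of them outside the interval. A CTCF promoter peak was found at 4, 8 and 7 of the 15 in wt, mut and somKO, and a Rad21 promoter peak at 8, 9 and 9. Of all protein-coding genes, 35.2%, 40.3% and 39.6% had a CTCF promoter peak and 53.0%, 57.2% and 58.6% a Rad21 promoter peak, in that order. The 15 include snoRNA genes, which these shares leave out, and the differences between genotypes were not tested. Chrna7, a nicotinic acetylcholine receptor gene, Otud7a, Klf13 and Mtmr10 had CTCF in all 3 genotypes. SmcHD1 had a promoter peak in wt at Snhg14 and at Otud7a. For Snhg14 that peak lay at an annotated transcript start within the array of snoRNA genes. Atp10a, a flippase gene, and Herc2, a ubiquitin ligase gene, had Rad21 in all 3. Gabrg3 and Herc2 had CTCF in mut alone, and Trpm1 had CTCF in somKO alone. Snurf, which lies at the imprinting centre, had the Rad21 peak of mut described above, and the snoRNA genes Snord64 and Snord107 had no peak in any list.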

How the data were processed

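Peak lists of ChIP-seq were analysed, 8 lists of 1 antibody in 1 genotype each, made from 24 of the 52 libraries of the series. Per the labels and the study's methods, the authors aligned reads with Bowtie2 to mm10 with strain variants masked, merged libraries and called narrow peaks with MACS2 at q < 0.05 (versions and the use of input are not given in the sources used here). The deposited score of each peak, 13 or more, was read as 10 times the -log10 q of MACS2 and used only for ranks within a list. It depends on depth, which the lists do not hold, so scores were not compared between lists.

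Peaks were assigned by midpoint to spans, and to a promoter (within 1 kb of a GENCODE M21 transcript start) or gene body. Peaks overlapping by 1 base or more were called shared. Intervals are exact (Clopper-Pearson, 95%; for ratios of densities, from the exact binomial interval) and cover counting error only. With 1 merged list per genotype no test was made. Repeated words were counted over the whole GRCm38.p6 genome on both strands. The overlap and count steps were tested on simulated data. Python 3.11.15, NumPy 2.4.6, SciPy 1.17.1 and matplotlib 3.10.9 were used.

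Named peaks were the peaks at member promoters and bodies and the highest-scoring peaks of each side, and copied or changed sites were picked after their values were seen. The members and lists were chosen with earlier results of these data known. Alternatives were a score of at least 50, a flank of 100 kb, promoters of 2 kb or the 5' end alone, lists shortened to equal length, an overlap of 50% of both peaks, RefSeq starts, and wt peaks of at most 50% repeated words. The values of 1 of the other genes looked up are not reported here.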

Additional observations from a re-analysis of the deposited data

Results flagged for a closer look

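In the interval and between the sides, CTCF and Rad21 had fewer peaks in mut and more in somKO than in wt, and the difference between the 2 genotypes was not tested. In the interval CTCF had -4 peaks in mut and 7 more in somKO than in wt, and between the sides -3 and 5. Rad21 had -1 and 19 in the interval, and -5 and 14 between the sides. With lists of equal length the values were 0 and 3 for CTCF and -1 and 4 for Rad21 in the interval, and -1 and 1 for CTCF and -5 and 2 for Rad21 between the sides. On the sides themselves both genotypes went the same way or did not change, with 2 and 3 for CTCF on the Snrpn side, -3 and -1 for CTCF on the Magel2 side, 1 and 0 for Rad21 on the Snrpn side, and 3 and 5 for Rad21 on the Magel2 side. The length of the lists and the number of merged libraries move with these counts, and their part was not tested.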

How the results depend on the processing

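Of 176 values recomputed under an alternative, 152 stayed within the limits set for a change and 24 moved. With a score of at least 50, SmcHD1 wt kept 9 peaks in the interval, 7 on the Snrpn side and 1 on the Magel2 side, and 0 at member promoters, SmcHD1 mut kept 0 in the interval and 0 on the Snrpn side, and Rad21 mut kept 3 on the Snrpn side. With that score 2.94% of CTCF wt peaks had no somKO counterpart, and 91.7% of Rad21 mut and 73.2% of Rad21 somKO peaks overlapped CTCF. With a flank of 100 kb the Snrpn side had 2 CTCF wt, 2 Rad21 wt and 2 Rad21 somKO peaks, and the Magel2 side 6 Rad21 wt and 9 Rad21 somKO peaks. With lists of equal length 2.86% of CTCF wt peaks had no somKO counterpart, 24.3% of Rad21 somKO peaks had none in wt and 78.4% of them overlapped CTCF. With an overlap of 50% of both peaks, 27.3% of Rad21 wt peaks had no somKO counterpart, 53.8% of Rad21 somKO peaks had none in wt, and 33.3%, 34.4% and 28.8% of Rad21 peaks in wt, mut and somKO overlapped CTCF. With at most 50% repeated words, chosen after seeing the data, SmcHD1 wt had 1 peak on the Snrpn side. A stricter score or overlap leaves fewer peaks or pairs by construction, and other causes were not tested. No paired analysis was possible because each list merges its libraries, and for the same reason no replicate could be left out.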

Other observations

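Between the sides, and noticed after the values were seen, lay the 13 genes of the Mir344 family of microRNAs. A Rad21 peak lay within 500 bases of 7 of the 13 in wt, 3 in mut and 11 in somKO, beside 13.1%, 14.3% and 17.0% of the other microRNA genes. Most of these Rad21 peaks were weak: in wt 6 of the 7 had percentiles from 13.7 to 33.5, with Mir344 itself at 89.8, and 5 of the 11 in somKO had scores from 38 to 52, below the lowest score of 62 that the somKO list kept when shortened to the length of the mut list. CTCF lay as close to 1 of the 13 in each genotype, beside 9.23%, 10.0% and 10.6%. The 13 genes are neighbours and can share a peak, so they are not independent, and the somKO list is the longest. The CTCF sites beside Mir344h-2 and Mir344 had 83.5% and 50.9% repeated words, and repeated words were not counted for the Rad21 peaks. The part of read placement in these counts was not tested.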
